A study of Arabidopsis thaliana with 12 samples.

Results

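The ethylene synthesis, signalling and ERF genes described here are 37 Arabidopsis thaliana loci, taken by locus code from the 32833 loci in the count tables. They hold 5 ethylene receptors, 7 signalling genes downstream of or beside the receptors, 9 ACC synthase (ACS) genes, 5 ACC oxidase (ACO) genes and 11 genes of the ERF transcription factor family. Gene names come from RefSeq's gene table, in which all 37 loci were found. RNA-seq was made from hypocotyls with the upper 5 mm of the root, the part of the plant in which the vascular cambium thickens the axis. The plants were 3 weeks old and grown in long days, and the design text gives radial growth as the subject of the comparisons.

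The 4 genotypes had 3 biological replicates each. Wild type was ecotype Columbia-0 (Col-0). The er erl2 line carries er-105 and erl2-1 in the receptor kinase genes ER (ERECTA) and ERL2. The pxf line carries pxy-3, pxl1-1 and pxl2-1 in PXY, the receptor kinase of the cambium, and its relatives PXL1 and PXL2. The pxf er erl2 line carries all 5 of these mutations. The labels name no transgene and no applied agent, and whether a replicate was a single plant or a pool is not given in the sources used here.

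Plants make the gas ethylene from S-adenosylmethionine: ACC synthase forms the precursor ACC, and ACC oxidase turns ACC into ethylene. Without ethylene, the receptors keep the kinase CTR1 active, and CTR1 holds EIN2 in check. When ethylene binds the receptors, a part of EIN2 moves to the nucleus and the transcription factors EIN3 and EIL1 accumulate, because the F-box proteins EBF1 and EBF2 no longer drive their breakdown. EIN3 then switches on genes such as ERF1, and, in Arabidopsis seedlings, ethylene also raises the RNA of several of its own receptors and of EBF2. Ethylene is known as a stimulator of cell division in the vascular cambium.

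EIN3 binds short DNA words, so the stretches before the gene starts are shown for 3 members that illustrate the results: the receptor ERS1, whose RNA was lower in every mutant line, the receptor ETR1, whose RNA was not called in any comparison, and EBF2, which was called in 5 of them. Each shows the 250 bases before the annotated start, read 5′ to 3′ on the gene's strand from RefSeq's TAIR10.1 assembly, with capitals at the EIN3 words ATGTATCT, ATGTACCT, ATGAATCT and ATGAACCT or their reverse complements AGATACAT, AGGTACAT, AGATTCAT and AGGTTCAT. The stretches lie at chr2:17087327-17087576 on the minus strand for ERS1, chr1:24733912-24734161 on the plus strand for ETR1 and chr5:8797350-8797599 on the minus strand for EBF2.
ERS1: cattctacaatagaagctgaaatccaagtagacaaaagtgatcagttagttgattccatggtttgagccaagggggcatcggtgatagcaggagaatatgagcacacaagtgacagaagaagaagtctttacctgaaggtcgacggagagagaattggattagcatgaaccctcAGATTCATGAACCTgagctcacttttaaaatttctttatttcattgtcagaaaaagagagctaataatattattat
ETR1: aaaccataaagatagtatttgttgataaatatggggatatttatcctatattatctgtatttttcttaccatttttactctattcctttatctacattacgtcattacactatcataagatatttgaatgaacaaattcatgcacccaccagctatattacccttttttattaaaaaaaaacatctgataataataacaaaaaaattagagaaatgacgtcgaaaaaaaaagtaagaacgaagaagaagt
EBF2: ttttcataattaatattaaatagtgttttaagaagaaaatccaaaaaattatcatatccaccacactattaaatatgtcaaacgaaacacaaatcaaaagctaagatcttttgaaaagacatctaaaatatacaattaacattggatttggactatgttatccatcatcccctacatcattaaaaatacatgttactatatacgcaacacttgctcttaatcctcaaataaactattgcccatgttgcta

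ERS1 holds a pair of these words that share 2 bases, with their first bases at -76 and -70 from the start. The windows of ETR1 and EBF2 hold none of the words listed, and other words that EIN3 may bind were not searched. From 250 bases before to 50 after the start, 2 of the 37 members had a word (ERS1 and RTE1, 5.41%), against 4.66% of all 27443 protein-coding genes. With 1000 bases before the start it was 8 members (21.6%) against 18.6%. They are ERS1, RTE1, ETR2, EBF1, ERF1A, ORA59, ERF109 and ACS1. Of these, ORA59 and ERF109 were not called in any comparison, and ACS1 was not tested. Words farther out are shown for ETR2, the receptor with the largest drop, and for EBF1, the partner of EBF2, with 11 bases on either side.
ETR2 at -651, chr3:8253897-8253926, plus strand: cattactctttAGATTCATgtatggtgaag
ETR2 at -320, chr3:8254228-8254257, plus strand: tttaggttcctAGATTCATgtcatgtggct
EBF1 at -971, chr2:10851750-10851779, minus strand: gtcctctccacAGATACATtcagattccaa

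The core of the GCC box (GCCGCC, either strand), the word bound by ERF proteins, was in the shorter window of 2 members, ORA59 and ERF11, or 5.41% against 2.57% of all protein-coding genes. In the longer window it was in 4 members (10.8%) against 9.11%. These are matches of letters only.

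Depth was even, at 10507590 to 14716123 counted reads per library. Levels are given as CPM, read counts scaled to library size. Correlations of log2 CPM were 0.977 to 0.99 between replicates and 0.926 to 0.972 between genotypes. The labels were checked on the mutated genes: ER averaged 38.3 CPM in wild type and 62.5 in pxf, whereas the lines with er-105 had 9.57 (er erl2) and 9.33 (pxf er erl2). PXY averaged 249 CPM in wild type and 349 in er erl2, but 22.9 in pxf and 77.4 in pxf er erl2. ERL2, PXL1 and PXL2 were scarce, at 5 to 37 counts summed over the 3 libraries of a genotype, and ERL2 and PXL1 were not tested. PXL2 was called lower in pxf er erl2 against wild type (log2 fold change -1.79, adjusted p 0.0283), a call lost without wild type replicate 1 or pxf er erl2 replicate 2 or 3 (adjusted p 0.0731 to 0.113). In pxf against wild type PXL2 was not called (-1.01, adjusted p 0.184). Markers of other tissues moved with the genotypes. Of the 6 cambium markers, 3 were called higher and 0 lower in er erl2 against wild type. In pxf and in pxf er erl2, 2 were called higher and 3 lower. Their sum includes the mutated gene PXY at the levels given above, so it does not show a shared direction. It was 534 to 554 CPM (wild type), 691 to 728 (er erl2), 277 to 307 (pxf) and 296 to 330 (pxf er erl2). The 6 xylem markers summed to 1310 to 1440, 1290 to 2010, 1020 to 1060 and 1020 to 1090 CPM in the same order, and the 6 phloem markers to 479 to 521, 622 to 728, 800 to 934 and 851 to 1130. Against wild type, 1 xylem marker was called higher and 0 lower in er erl2. The counts were 0 and 4 in pxf, and 1 and 4 in pxf er erl2. For phloem markers they were 3 and 0 in er erl2, 5 and 1 in pxf, and 5 and 0 in pxf er erl2. The 6 markers of green tissue, all 6 of them higher in each mutant line, summed to 949 to 1400, 2270 to 2500, 3550 to 4810 and 3910 to 6270 CPM. The 6 periderm and endodermis markers, of which CASP1 was too scarce to test, summed to 111 to 124, 127 to 168, 219 to 319 and 183 to 271 CPM. Fewer cells of a type and less RNA per cell cannot be told apart in such whole-organ samples, and the part of these shifts in the results that follow was not tested.

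Of the 37 members, 31 had enough counts to be tested. The 6 that did not are ACC synthase genes. A gene is called where the adjusted p of edgeR's quasi-likelihood test was under 0.05 over all 19236 loci tested. By that rule 18 members were called in at least 1 of 6 comparisons, 13 of them in at least 2, and 13 tested members were never called. How many of all tested genes were called at least once was not counted, so these counts are not set against all genes. The largest group of calls was in pxf er erl2 against wild type, with 3 members higher and 12 lower, where 19.9% of all tested genes were called higher and 16.4% lower (36.3% together). In pxf against wild type 1 member was higher and 9 were lower, against 13.0% and 7.97% of all genes (21.0% together). In er erl2 against wild type no member was higher and 3 were lower, against 10.3% and 8.44% (18.8% together). Without pxf er erl2 replicate 3 the er erl2 count was 8 (1 higher, 7 lower), without er erl2 replicate 2 it was 1, by DESeq2 it was 7 and in a fit of er erl2 and wild type alone it was 10. The median log2 fold change of the tested members was -0.13 in pxf er erl2, -0.21 in pxf and -0.08 in er erl2, beside 0.00, 0.01 and 0.02 over all genes.

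**Figure D1:**
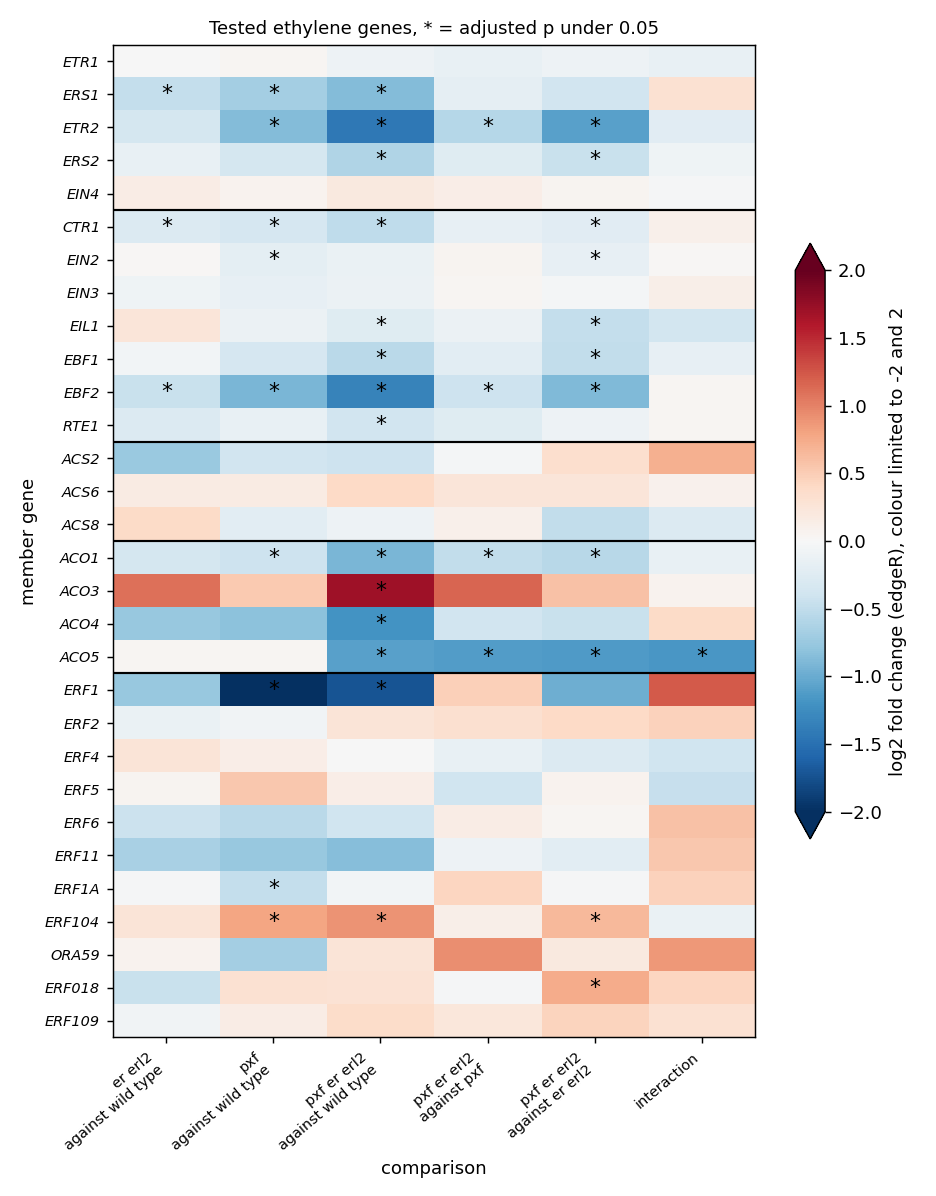
Log2 fold change of 30 tested members (rows, in blocks of receptors, signalling genes, ACC synthases, ACC oxidases and ERF genes) in the 6 comparisons (columns); blue is lower, red is higher, and a star marks an adjusted p under 0.05. Lower calls in the 3 comparisons with wild type lie mostly among receptors, signalling genes and ACC oxidases, while the ACC synthase block holds no star.

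Among the receptors, ERS1, ETR2 and ERS2 fell and ETR1 and EIN4 did not pass the test in any comparison. ERS1 (AT2G40940), a receptor of the subfamily that also holds ETR1, had 189, 182 and 198 CPM in wild type, 149, 122 and 135 in er erl2, 123, 132 and 98.9 in pxf, and 87.5, 96.0 and 129 in pxf er erl2. All 9 mutant libraries lay below the 3 of wild type. The log2 fold change was -0.48 in er erl2 (SE 0.141, adjusted p 0.0357), -0.68 in pxf (SE 0.141, adjusted p 0.00634) and -0.86 with all 5 mutations (SE 0.142, adjusted p 0.000753). The 3 mutant lines overlapped one another, and neither pxf er erl2 against pxf (log2 fold change -0.18, 95% interval -0.492 to 0.13) nor against er erl2 (-0.38, -0.695 to -0.0733) was called. The er erl2 call was lost without any of the 3 wild type libraries or without er erl2 replicate 2 or 3 (adjusted p 0.0644 to 0.117). It was also lost with replicate number added to the fit. Against er erl2, ERS1 was called when pxf er erl2 replicate 3, at 129 CPM the highest of its group, was left out (adjusted p 0.00268, in a range of 0.00268 to 0.182 over the alternatives).

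ETR2 (AT3G23150, chr3:8254559-8257888, plus strand), a receptor of the other subfamily whose RNA ethylene is known to raise, showed the steepest fall of the receptors. It had 194, 201 and 182 CPM in wild type, 162, 133 and 158 in er erl2, 116, 108 and 93.3 in pxf, and 58.3, 69.1 and 86.1 in pxf er erl2. No library of pxf or pxf er erl2 overlapped another genotype. ETR2 was 2.71-fold lower in pxf er erl2 than in wild type (log2 fold change -1.44, SE 0.131, adjusted p 9.98e-06) and 1.82-fold lower in pxf (-0.86, SE 0.129, adjusted p 0.000851). The er erl2 libraries also lay below those of wild type, by 1.27-fold, without a call (adjusted p 0.079). It was called lower in pxf er erl2 against er erl2 (-1.09, SE 0.131, adjusted p 7.81e-05). The call against pxf (-0.57, SE 0.13, adjusted p 0.0164) was lost without pxf replicate 1 or pxf er erl2 replicate 2 and in a fit of those groups alone (adjusted p 0.0578 to 0.0693).

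ERS2 (AT1G04310), a scarcer receptor of the subfamily of ETR2, had 20.6, 19.1 and 20.4 CPM in wild type, 17.9, 15.5 and 20.5 in er erl2, 18.5, 13.3 and 15.2 in pxf, and 12.6, 13.2 and 13.8 in pxf er erl2. The pxf er erl2 libraries lay below those of wild type and er erl2 and overlapped those of pxf. It was called lower in pxf er erl2 against wild type (-0.60, SE 0.129, adjusted p 0.00312) and against er erl2 (-0.45, SE 0.13, adjusted p 0.0178). The second call was lost without er erl2 replicate 3 or pxf er erl2 replicate 1 (adjusted p 0.0632 to 0.091).

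ETR1 (AT1G66340), the receptor in which ethylene-insensitive mutants were first mapped, had 42.9, 44.7 and 48.8 CPM in wild type and 40.8 to 47.6 in the 9 mutant libraries. EIN4 (AT3G04580), a receptor of the subfamily of ETR2, had 38.8, 40.1 and 29.9 CPM in wild type and 35.7 to 43.4 in the mutants. Both overlapped between wild type and each mutant line. The annotated gene AT1G66345 overlaps ETR1 on the same strand. For ETR1 the 95% interval of the log2 fold change in pxf er erl2 against wild type was -0.264 to 0.0531, so a drop of the size seen for ERS1 lay outside it. For EIN4 it was -0.0293 to 0.434.

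**Figure D2:**
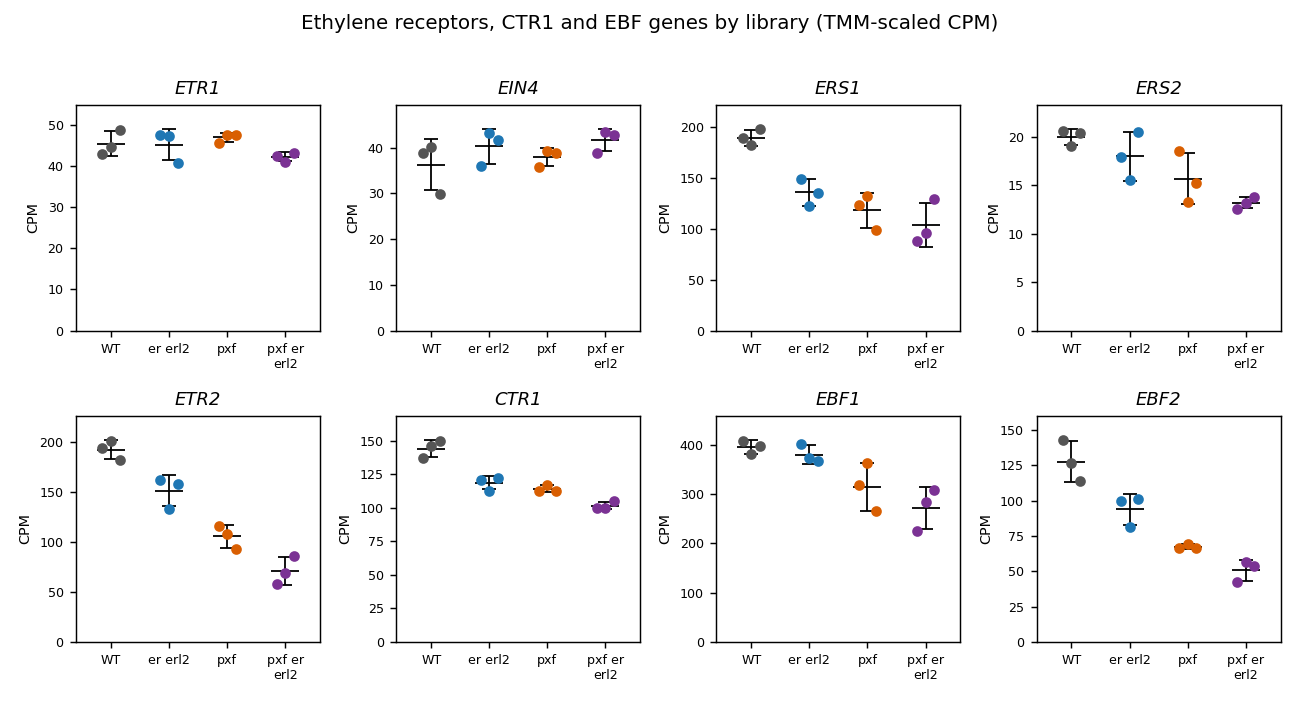
TMM-scaled CPM (y axis, from 0) of 5 receptors, CTR1, EBF1 and EBF2 in each of the 12 libraries by genotype (x axis; WT is wild type), with bars for the mean ± SD of 3 libraries. ETR1 and EIN4 overlap between wild type and every mutant line, while ETR2 and EBF2 step down from wild type to pxf er erl2.

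CTR1 (AT5G03730), the kinase that represses the pathway downstream of the receptors, fell by a small amount in every mutant line. It had 137, 146 and 150 CPM in wild type, 121, 113 and 122 in er erl2, 113, 117 and 113 in pxf, and 99.7, 100 and 105 in pxf er erl2. All mutant libraries lay below wild type, and the pxf er erl2 libraries lay below all others. The log2 fold change against wild type was -0.28 in er erl2 (SE 0.054, adjusted p 0.00317), -0.33 in pxf (SE 0.0539, adjusted p 0.00102) and -0.51 with all 5 mutations (SE 0.0541, adjusted p 1.77e-05). It was also called lower in pxf er erl2 against er erl2 (-0.23, SE 0.0541, adjusted p 0.00619), and not against pxf (-0.17, adjusted p 0.0639). These 4 calls were kept in every alternative fit.

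EBF2 (AT5G25350, chr5:8794252-8797349, minus strand), the F-box gene that ethylene induces, was called lower in all 5 pairwise comparisons. It had 143, 127 and 114 CPM in wild type, 99.8, 81.1 and 101 in er erl2, 66.8, 69.4 and 66.4 in pxf, and 42.3, 56.3 and 53.8 in pxf er erl2. The 4 genotypes did not overlap. EBF2 was 2.51-fold lower in pxf er erl2 than in wild type (-1.33, SE 0.117, adjusted p 5.57e-06), 1.89-fold lower in pxf (-0.92, SE 0.115, adjusted p 0.000239) and 1.36-fold lower in er erl2 (-0.44, SE 0.114, adjusted p 0.018). It was 1.85-fold lower in pxf er erl2 than in er erl2 (-0.89, SE 0.117, adjusted p 0.000124) and 1.33-fold lower than in pxf (-0.41, SE 0.117, adjusted p 0.0435). The er erl2 call was lost without wild type replicate 1 or er erl2 replicate 2 (adjusted p 0.0674 to 0.0714). The call against pxf was lost without any library of pxf, without wild type replicate 2, er erl2 replicate 1 or 3 or pxf er erl2 replicate 1 or 3 (adjusted p 0.0514 to 0.143). It was also lost in a fit of those groups alone and with replicate number added to the fit. Opposite-strand genes cover 21.4% of the exon bases of EBF2, and the library kit does not mark strand, and AT5G25340, an overlapping gene, had 0 to 0.344 CPM.

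EBF1 (AT2G25490), the F-box gene that acts with EBF2, was the most abundant signalling member. It had 409, 382 and 399 CPM in wild type, 402, 373 and 368 in er erl2, 318, 364 and 266 in pxf, and 225, 284 and 308 in pxf er erl2. Wild type and er erl2 overlapped, and pxf er erl2 lay below both. It was called lower in pxf er erl2 against wild type (-0.54, SE 0.119, adjusted p 0.0039) and against er erl2 (-0.49, SE 0.119, adjusted p 0.00773). In pxf the log2 fold change of -0.33 was not called (adjusted p 0.0694).

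The central activators moved less. EIN2 (AT5G03280), the membrane protein that carries the signal to the nucleus, had 167, 159 and 161 CPM in wild type, 168, 173 and 157 in er erl2, 144, 137 and 145 in pxf, and 150, 152 and 144 in pxf er erl2. The pxf libraries lay below those of wild type and er erl2, by little. EIN2 was called lower in pxf against wild type (-0.19, SE 0.0541, adjusted p 0.0241). Between pxf er erl2 and er erl2 it differed by -0.16 (SE 0.0541, adjusted p 0.0346), also a call. Leaving out wild type replicate 1 or 3 or any pxf library took away the first call (adjusted p 0.0525 to 0.0887). The second was lost in a fit of those groups alone and without er erl2 replicate 1 or 2, pxf replicate 1 or any pxf er erl2 library (adjusted p 0.0533 to 0.138). EIN3 (AT3G20770), the main transcription factor of the pathway, had 147 to 181 CPM over the 12 libraries and was not called in any comparison, and its protein is known to be controlled by breakdown more than by RNA level.

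EIL1 (AT2G27050), the close relative of EIN3, had 61.1, 56.6 and 51.5 CPM in wild type, 62.5, 70.8 and 65.8 in er erl2, 53.9, 51.9 and 50.4 in pxf, and 47.3, 52.0 and 44.0 in pxf er erl2. The er erl2 libraries were the highest, and wild type and pxf er erl2 overlapped. EIL1 was called lower in pxf er erl2 against er erl2 (-0.48, SE 0.0808, adjusted p 0.000633). The smaller difference from wild type (-0.24, SE 0.0813, adjusted p 0.0343) was lost in a fit of those groups alone and without wild type replicate 1 or 2 or pxf er erl2 replicate 1 or 3 (adjusted p 0.0786 to 0.15). RTE1 (AT2G26070), a membrane protein that supports ETR1, had 22.3 to 25.1 CPM in wild type and 15.6 to 20.4 in pxf er erl2. These groups did not overlap, and RTE1 was called lower (-0.39, SE 0.107, adjusted p 0.0135), a call lost without wild type replicate 1 (adjusted p 0.0572). RTE1 lies 105 kb from ER and EIL1 336 kb, and the part of linkage to the mutated locus was not tested.

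Of the 9 ACC synthase genes, 3 were tested and none was called in any comparison by edgeR. At an unadjusted p under 0.05 there was 1 with er erl2 against wild type and 1 with pxf er erl2 against wild type, and DESeq2 called 1, in pxf er erl2 against wild type. ACS6 (AT4G11280), known as a stress-activated ACC synthase stabilised by MAP kinases, was by far the most abundant of them. It had 394, 329 and 298 CPM in wild type, 420, 349 and 368 in er erl2, 450, 395 and 296 in pxf, and 452, 407 and 491 in pxf er erl2. The pxf er erl2 libraries lay above those of wild type, and the difference narrowly missed the threshold (log2 fold change 0.40, 95% interval 0.0775 to 0.732, adjusted p 0.0536). ACS2 (AT1G01480) had 2.89 to 7.84 CPM and ACS8 (AT4G37770) 0.691 to 1.73 over the 12 libraries. ACS11, ACS7, ACS5, ACS1 and ACS9 had 56, 19, 5, 2 and 1 counts in all 12 libraries together, and ACS4 had 0. In a single library 3 counts correspond to 0.207 to 0.284 CPM, so a change below that level was not detectable at this depth. Of the 50-base words of ACS1, 35.4% occur elsewhere in the genome.

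Among the ACC oxidase genes, ACO1, ACO4 and ACO5 fell and ACO3 rose in pxf er erl2 against wild type. ACO1 (AT2G19590), the most abundant member per kb of exon in wild type, had 688, 695 and 654 CPM in wild type, 561, 499 and 530 in er erl2, 472, 600 and 452 in pxf, and 312, 324 and 443 in pxf er erl2. All mutant libraries lay below wild type, and pxf er erl2 lay below the rest. ACO1 was 1.89-fold lower in pxf er erl2 than in wild type (-0.92, SE 0.133, adjusted p 0.000278) and 1.47-fold lower than in er erl2 (-0.56, SE 0.133, adjusted p 0.00657). It was 1.34-fold lower in pxf than in wild type (-0.42, SE 0.132, adjusted p 0.043), a call lost without any wild type library, er erl2 replicate 1 or 2 or pxf replicate 1 or 3 (adjusted p 0.0538 to 0.148). This call was also lost with no filter. ACO1 was 1.41-fold lower in pxf er erl2 than in pxf (-0.50, SE 0.133, adjusted p 0.0334), a call lost in a fit of those groups alone and without pxf replicate 1 or 2 or pxf er erl2 replicate 1 or 2 (adjusted p 0.0543 to 0.13). Both calls were also lost with replicate number added to the fit.

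ACO4 (AT1G05010), an ACC oxidase also known as EFE, had 66.4, 55.9 and 70.2 CPM in wild type, 39.9, 36.0 and 38.2 in er erl2, 30.8, 44.1 and 33.9 in pxf, and 23.4, 17.7 and 43.0 in pxf er erl2. Every mutant library lay below wild type. The call was in pxf er erl2 (2.3-fold lower, -1.20, SE 0.27, adjusted p 0.0064), and the log2 fold changes of -0.75 in er erl2 and -0.82 in pxf were not called (adjusted p 0.0757 and 0.052). In er erl2 the adjusted p ran from 0.000501, in a fit of er erl2 and wild type alone, to 0.18 over the alternatives. Without pxf er erl2 replicate 3, at 43.0 CPM, ACO4 was also called in pxf against wild type (adjusted p 0.00164, in a range to 0.154) and in pxf er erl2 against pxf (0.00947, in a range to 0.81) and against er erl2 (0.00196, in a range to 0.579).

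ACO5 (AT1G77330, chr1:29062945-29064637, minus strand), an ACC oxidase of low abundance, was down in the pxf er erl2 line only, among the 3 mutant lines as compared with wild type. It had 5.12, 6.20 and 7.30 CPM in wild type, 4.95, 7.89 and 6.41 in er erl2, 6.27, 5.85 and 6.99 in pxf, and 2.11, 3.54 and 3.13 in pxf er erl2. The first 3 genotypes overlapped and pxf er erl2 lay below all of them. It was lower in pxf er erl2 than in wild type (log2 fold change -1.09, SE 0.231, adjusted p 0.00288), 2.17-fold lower than in pxf (-1.12, SE 0.228, adjusted p 0.0077) and 2.19-fold lower than in er erl2 (-1.13, SE 0.23, adjusted p 0.00219). ACO3 (AT1G12010), the scarcest oxidase, had 0.284 to 0.547 CPM in wild type and 1.40 to 1.52 in pxf er erl2. These groups did not overlap, and it was called higher (1.69, SE 0.457, adjusted p 0.0115) on 15 counts summed over the 3 wild type libraries.

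**Figure D3:**
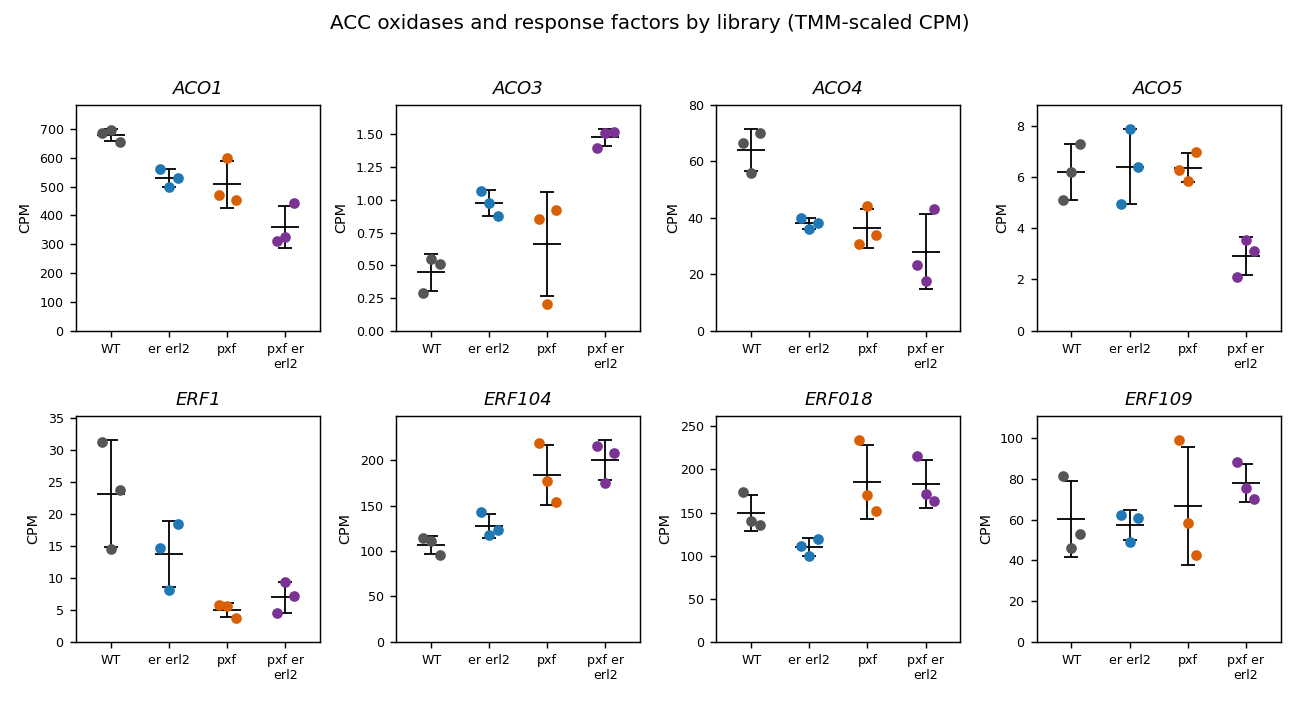
TMM-scaled CPM (y axis, from 0) of ACO1, ACO3, ACO4, ACO5, ERF1, ERF104, ERF018 and ERF109 in each of the 12 libraries by genotype (x axis; WT is wild type), with bars for the mean ± SD of 3 libraries. ACO3 lies highest and ACO5 lowest in pxf er erl2, ERF104 is higher in pxf and pxf er erl2 than in wild type, and the 3 pxf libraries of ERF1 lie at 3.76 to 5.70 CPM.

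The 11 ERF genes encode DNA-binding proteins of the family to which ERF1 belongs. Calls among these 11 lay in ERF1, ERF104, ERF018 and ERF1A. ERF1 (AT3G23240), the direct target of EIN3, fell most. It had 31.3, 14.5 and 23.7 CPM in wild type, 14.6, 8.13 and 18.4 in er erl2, 5.70, 5.58 and 3.76 in pxf, and 4.45, 9.28 and 7.19 in pxf er erl2. All 6 libraries of pxf and pxf er erl2 lay below the 3 of wild type, whose own values differed by over 2-fold. ERF1 was 4.59-fold lower in pxf (log2 fold change -2.20, SE 0.379, adjusted p 0.00276). Its fall was 3.31-fold in pxf er erl2 (-1.73, SE 0.369, adjusted p 0.00439). Wild type and er erl2 overlapped, and that difference was not called (-0.76, 95% interval -1.53 to 0.015, adjusted p 0.161).

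ERF104 (AT5G61600, chr5:24766344-24767732, minus strand), an ERF known from the defence response downstream of MPK6, rose. It had 114, 111 and 95.4 CPM in wild type, 143, 118 and 123 in er erl2, 219, 177 and 154 in pxf, and 216, 175 and 208 in pxf er erl2. All libraries of pxf and pxf er erl2 lay above those of wild type and er erl2. ERF104 was 1.72-fold higher in pxf (0.78, SE 0.132, adjusted p 0.00188) and 1.87-fold higher in pxf er erl2 (0.90, SE 0.132, adjusted p 0.000305) than in wild type, and 1.56-fold higher in pxf er erl2 than in er erl2 (0.64, SE 0.131, adjusted p 0.00277). ERF104 lies 40.7 kb from PXY, whose mutant allele both of these lines carry, and the part of linkage was not tested. Of the 20 tested genes nearest to ERF104, 2 were called higher and 3 lower in pxf against wild type.

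ERF018 (AT1G74930), an ERF known from studies of ethylene and cambium activity, had 174, 140 and 135 CPM in wild type, 111, 99.0 and 119 in er erl2, 234, 170 and 152 in pxf, and 215, 171 and 163 in pxf er erl2. Wild type overlapped with pxf and pxf er erl2, and er erl2 lay below all 3. Its single call was in pxf er erl2 against er erl2 (0.74, SE 0.167, adjusted p 0.00578). ERF1A (AT4G17500), a family member near ERF6 on chromosome 4, had 127 to 160 CPM in wild type and 74.7 to 119 in pxf. It was called lower there (-0.48, SE 0.142, adjusted p 0.0337), a call lost in a fit of those groups alone and without wild type replicate 1 or 3 (adjusted p 0.076 to 0.117). ERF109 (AT4G34410), an ERF induced by wounding and jasmonate, had 42.7 to 99.1 CPM over the 12 libraries and was not called. Opposite-strand genes cover 64.0% of its exon bases, of which AT4G34412 had 6.26 to 10.7 CPM.

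The other 6 ERF members, ERF2, ERF4, ERF5, ERF6, ERF11 and ORA59, were not called. ERF11, a repressor of the family, had 94.4 to 114 CPM in wild type and 33.0, 47.1 and 93.1 in pxf er erl2. ORA59, which joins ethylene and jasmonate signals at defence genes, had 9.29 to 9.76 CPM in wild type and 4.29, 10.9 and 19.0 in pxf er erl2. In both, pxf er erl2 replicate 3 was the highest library of its group. Without it, ERF11 was called lower in pxf er erl2 against wild type (log2 fold change -1.37, adjusted p 0.00824, in a range to 0.255), as was ERF6 (-0.66, adjusted p 0.00294, in a range to 0.376). Other alternatives went up as well as down. In a fit of er erl2 and wild type alone, ERF11 and ERF6 were called lower in er erl2 (adjusted p 0.0014 and 0.0123, in ranges to 0.437 and 0.331). In the same fit ERF4 was called higher (adjusted p 0.0393, in a range to 0.349). Without pxf replicate 3, ERF5 was called higher in pxf against wild type (adjusted p 0.0253, in a range to 0.189). ERF4 was then called lower in pxf er erl2 against er erl2 and in the interaction (0.039 and 0.036, in ranges to 0.318 and 0.364). Without pxf er erl2 replicate 1, ORA59 was called higher in pxf er erl2 against pxf (0.0158, in a range to 0.571).

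Levels were compared between members per kb of exon of the TAIR10.1 annotation. In wild type ACO1 stood at 288 CPM per kb, ACS6 at 182, ERF4 at 170 and EBF1 at 130. The receptors followed at 77.9 for ERS1, 59.5 for ETR2, 16.4 for ETR1, 10.9 for EIN4 and 7.71 for ERS2. In pxf er erl2 the order of the receptors was ERS1 at 42.9, ETR2 at 22.0, ETR1 at 15.2, EIN4 at 12.5 and ERS2 at 5.09 CPM per kb, so the span between the most and the least abundant receptor was smaller there. ACO1, at 153, stood below ACS6, at 241, in pxf er erl2, the reverse of wild type.

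**Figure D4:**
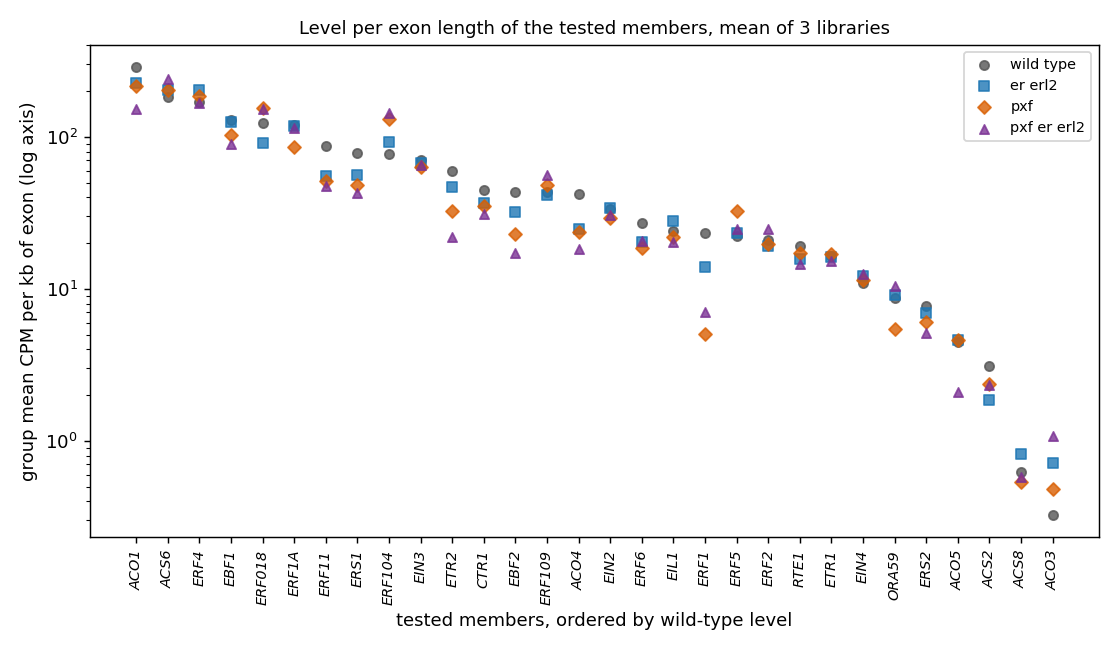
Group mean CPM per kb of exon (y axis, log scale) of 30 tested members, ordered by their wild type level (x axis), with a symbol per genotype. ACO1 leads in wild type and ACS6 in pxf er erl2 among the members drawn, while ACS2, ACS8, ACO3 and ACO5 lie at the low end.

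The mean of 9 tested members fell in the order wild type, er erl2, pxf, pxf er erl2: ERS1, ETR2, ERS2, CTR1, EBF1, EBF2, ACO1, ACO4 and ERF11. This is an order of means, and not every step was called. ERF11 was called in no comparison, and ERS2, EBF1 and ACO4 were called against wild type in pxf er erl2 only. How many of all tested genes fall in this order was not counted. The comparisons of pxf with wild type and of pxf er erl2 with er erl2 share no library and both take away the PXY family. Of 10 members called in the first and 12 in the second, 7 were called in both, which is 70.0% and 58.3%. Over all tested genes 2452 were called in both, which is 60.7% of the 4041 and 37.2% of the 6591, and whether the members differ from that was not tested. ETR2, CTR1, EIN2, EBF2 and ACO1 were lower and ERF104 was higher in both. In pxf er erl2 against er erl2, 3 members were called higher and 9 lower, where 18.0% and 16.2% of all genes were called (34.3% together). The loss of ER and ERL2 can be read likewise from er erl2 against wild type and from pxf er erl2 against pxf. In pxf er erl2 against pxf, 1 member was called higher and 4 lower, against 5.07% and 5.41% of all genes (10.5% together). EBF2 was the single member called in both, 33.3% of the first and 20% of the second, beside 19.7% and 35.3% over all tested genes.

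The interaction asks if plants respond differently to losing ER and ERL2 in the backgrounds with and without the PXY family. By that test 1 member was called higher and 1 lower, against 4.65% and 4.80% of all genes (9.45% together). For ACO5, the member called lower, losing ER and ERL2 changed the level by a log2 of 0.04 when the PXY family was present and of -1.12 when it was absent, a difference of -1.16 (SE 0.313, 95% interval -1.84 to -0.485, adjusted p 0.0362). The ACO5 call was lost without any 1 of 7 libraries, namely wild type replicate 1 or 2, er erl2 replicate 2 or 3, pxf replicate 1 or 3 and pxf er erl2 replicate 1 (adjusted p 0.0663 to 0.0885). For EBF2, not called, the difference was 0.03 (95% interval -0.323 to 0.389), for ETR2 -0.23 (-0.624 to 0.173), for CTR1 0.11 (-0.0559 to 0.275) and for ERS1 0.30 (-0.139 to 0.736). EIL1, at -0.36, had an adjusted p of 0.0675.

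**Figure D5:**
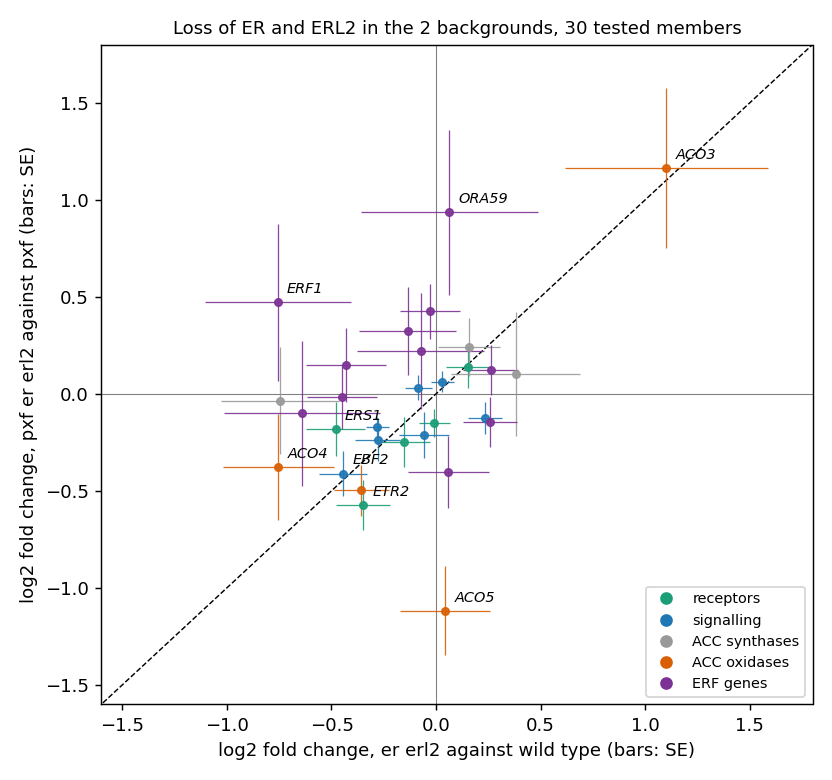
Log2 fold change of 30 tested members on losing ER and ERL2 with the PXY family present (x axis, er erl2 against wild type) and absent (y axis, pxf er erl2 against pxf), with bars for the SE and colour for the role; the dashed line marks equal change. EBF2 lies near the line, while ACO5, at -1.12 on the y axis, lies off it.

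Beyond the members, 19 other ethylene genes were followed, of which 18 were tested. In pxf er erl2 against wild type, 3 were higher and 3 lower, in pxf 2 and 3, in er erl2 2 and 1, between pxf er erl2 and er erl2 2 and 7, and none was called in pxf er erl2 against pxf or in the interaction by edgeR. In the last pair of comparisons 4 and 2 had an unadjusted p under 0.05, and DESeq2 called 1 and 1. ARGOS (AT3G59900) and its relative ARL (AT2G44080), small membrane proteins that raise organ size and dampen ethylene responses, had the largest log2 fold changes among those called in each line without PXY. ARGOS had 32.6, 29.2 and 32.1 CPM in wild type, 21.5, 14.6 and 36.1 in er erl2, 9.33, 11.2 and 7.68 in pxf, and 4.68, 6.26 and 6.85 in pxf er erl2. All libraries of pxf and pxf er erl2 lay below those of wild type and er erl2. ARGOS was 3.32-fold lower in pxf (-1.73, SE 0.281, adjusted p 0.00183) and 5.28-fold lower in pxf er erl2 (-2.40, SE 0.299, adjusted p 0.000138) than in wild type. ARL was 2.61-fold lower in pxf (-1.39, SE 0.248, adjusted p 0.00396) and 3.01-fold lower in pxf er erl2 (-1.59, SE 0.251, adjusted p 0.000888).

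Upstream of ACC synthase, SAM2 (AT4G01850), a synthase of S-adenosylmethionine, had 847 to 903 CPM (wild type), 536 to 739 (er erl2), 594 to 641 (pxf) and 498 to 536 (pxf er erl2). Every mutant library lay below wild type, and SAM2 was called lower in er erl2 (-0.45, SE 0.0932, adjusted p 0.00532), pxf (-0.51, SE 0.0932, adjusted p 0.00242) and the line with all 5 mutations (-0.74, SE 0.0935, adjusted p 7.15e-05). ETP1 (AT3G18980), an F-box protein that targets EIN2 for breakdown, was called higher in the same 3 lines, at a log2 fold change of 0.31 (er erl2, adjusted p 0.02), 0.50 (pxf, adjusted p 0.00104) and 0.63 (pxf er erl2, adjusted p 7.92e-05). Leaving out wild type replicate 3 or either of er erl2 replicates 2 and 3 took away the er erl2 call of ETP1 (adjusted p 0.0617 to 0.0797). The values of SAM2 and ETP1 in pxf er erl2, and of ETP1 in pxf, were chosen after they were seen.

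Of 29 other ERF family genes, 24 were tested. In pxf er erl2 against wild type 1 was higher and 10 lower, in pxf 1 and 5, in er erl2 0 and 2, between pxf er erl2 and er erl2 4 and 4, between pxf er erl2 and pxf 2 and 1, and none was called in the interaction by edgeR, where 9 had an unadjusted p under 0.05 and DESeq2 called 5. ERF9 (AT5G44210) had 3.19 to 5.88 CPM in wild type and 0.39 to 1.45 in the 6 libraries of pxf and pxf er erl2. It was called lower in pxf (-2.08, SE 0.368, adjusted p 0.0019), as it was with all 5 mutations (-2.36, SE 0.384, adjusted p 0.000468). RAP2.6 (AT1G43160) was lower in the same lines (-2.45, adjusted p 0.00483, and -1.83, adjusted p 0.00919), at no more than 1.09 CPM in any library. ERF98 (AT3G23230) moved the other way, to 20.6 to 34.5 CPM in pxf er erl2, 3.06-fold above wild type (SE 0.177 on the log2 scale, adjusted p 2.37e-05). RAP2.3 (AT3G16770), an ERF of the oxygen-sensing group, had 1300 to 1610 CPM (wild type), 1010 to 1120 (er erl2), 1250 to 1280 (pxf) and 912 to 984 (pxf er erl2). It was lower in er erl2 than in wild type (log2 fold change -0.46, adjusted p 0.00111) and lower in pxf er erl2 than in pxf (-0.43, adjusted p 0.00302).

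Genes known to respond to ethylene gave a mixed picture. Of 13 followed, 8 were tested. Against wild type, 1 was higher and 1 lower in er erl2 (25.0% called, beside 18.8% of all genes). The counts were 0 and 1 in pxf (12.5% beside 21.0%) and 0 and 1 in pxf er erl2 (12.5% beside 36.3%). They were 1 and 3 between pxf er erl2 and er erl2. Both pxf er erl2 against pxf and the interaction gave 1 and 0. Outside the comparisons with wild type, the share called lay above that of all genes. The list summed to 741 to 1290 CPM (wild type), 439 to 548 (er erl2), 358 to 862 (pxf) and 498 to 1730 (pxf er erl2). Replicate 3 gave the 1730 CPM, and the other pxf er erl2 libraries had 676 and 498. EDF3 (AT3G25730), a direct target of EIN3, had 71.7 to 83.3 CPM (wild type), 49.5 to 60.2 (er erl2), 37.6 to 54.3 (pxf) and 25.5 to 44.8 (pxf er erl2). The mutants lay below wild type, and EDF3 was lower in pxf (-0.77, SE 0.182, adjusted p 0.0133). With all 5 mutations the difference was -1.15 (SE 0.185, adjusted p 0.000756). The pxf call was lost without pxf replicate 1 (adjusted p 0.0513). The defensin gene PDF1.2A (AT5G44420), which responds to ethylene with jasmonate, had 13.0, 39.4 and 7.90 CPM in er erl2 and 0 to 3.47 in the other 9 libraries, and was called higher in er erl2 (adjusted p 0.00449). Near-identical copies of this gene exist, and how the counting assigned reads that match several copies is not given in the sources used here.

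Handling stress and jasmonate responses can move ERF genes, so both were followed. Of 17 early touch and stress genes, none was called in er erl2 against wild type by edgeR (2 at an unadjusted p under 0.05, 2 by DESeq2), 1 was higher in pxf, and 2 were higher and 2 lower in pxf er erl2. In the other comparisons 1 was lower against pxf, 2 were higher and 3 lower against er erl2, and none was called in the interaction (2 at an unadjusted p under 0.05, 0 by DESeq2). Their summed level was 2630 to 3220 CPM (wild type), 2670 to 3130 (er erl2), 2050 to 3150 (pxf) and 2400 to 3020 (pxf er erl2), with overlap between all 4 genotypes. Of 7 jasmonate genes, 6 were tested. None was called in er erl2, 1 was higher in pxf and 1 in pxf er erl2 against wild type, 2 were higher against er erl2, and none was called against pxf or in the interaction. Where edgeR called none, 2, 2 and 1 had an unadjusted p under 0.05 and DESeq2 called 2, 1 and 1, in er erl2, against pxf and in the interaction. The gene called in both lines without PXY was VSP2 (AT5G24770), a storage protein gene induced by jasmonate, at 729 to 1150 CPM in wild type and 1860 to 2380 in pxf er erl2 (1.22, SE 0.205, adjusted p 0.00107). Its pxf call (0.75, adjusted p 0.0257) went above the threshold in 5 alternatives, among them those without wild type replicate 1, wild type replicate 3 and pxf replicate 2 (adjusted p 0.0582 to 0.0953). The summed jasmonate level was 1510 to 1800 CPM (wild type), 1200 to 1280 (er erl2), 1680 to 2630 (pxf) and 2390 to 3200 (pxf er erl2), and VSP2 made up most of it in pxf er erl2. The 6 tested genes had 3 positive and 3 negative log2 fold changes in pxf er erl2 against wild type, with a median of 0.05 beside 0.00 over all genes. In er erl2 against wild type all 6 were negative, with a median of -0.46 beside 0.02. For the interaction all 6 were positive, with a median of 0.75 beside -0.03. The part of the list in the ERF results was not tested.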

How the data were processed

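The authors deposited raw counts, whole reads per locus, for each of 12 libraries. Per the labels' protocols, poly-A RNA was sequenced from NEBNext Ultra libraries. Per the submitters' processing notes, HISAT2 2.0.5, featureCounts 1.5.0-p3 and the build TAIR10 were used; the annotation and strand setting are not given in the sources used here. Without strand, reads of overlapping opposite-strand genes cannot be told apart. Of the 32833 loci, 32548 were found in RefSeq's table.

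Counts were tested in R 4.3.3 with edgeR 4.0.16: filterByExpr (19236 loci, 99.92% of counts), TMM scaling (factors 0.985 to 1.011), 1 fit of all 12 libraries by genotype, the robust quasi-likelihood F-test, and Benjamini-Hochberg adjustment over all tested loci, with calls at 0.05. CPM are TMM-scaled. SE and 95% intervals are for log2 values and come from the same fit. p-values set the difference between genotypes against the spread between libraries, estimated over all 12, and no exact permutation of 3 against 3 libraries gives less than 0.1. On simulated counts for pxf against wild type (19022 genes), 109 genes were changed 2-fold and 91 were changed 4-fold. Of those that passed the filter, 79.2% and 94.5% were recovered, with 11 false calls. Smaller changes, such as many of the calls here, were not simulated. Replicates differed beyond counting noise (chi-square per degree of freedom 3.31 to 19).

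The members and lists were chosen with earlier results of these data known. Counts cover all 37 members, and the values of 1 member are not reported here. Every library value is given for the other members called in at least 2 comparisons, and other lists are given by counts and at most 3 genes per comparison. Alternatives were DESeq2 1.42.0, RLE scaling, library totals, no filter, the compared groups alone, the replicate block and leaving out each library. Sequences, exon lengths and positions come from TAIR10.1, the RefSeq release of the build named above. Antisense and copy overlap was computed from it.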

Additional observations from a re-analysis of the deposited data

Results flagged for a closer look

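ACO5 is singled out because the effect of losing ER and ERL2 on it differed between plants with and without the PXY family, by a test of the difference itself. The difference was -1.16 on the log2 scale (edgeR adjusted p 0.0362), with all 3 pxf er erl2 libraries below the 9 others, on 2.11 to 7.89 CPM. The call was lost in 7 of the 12 fits that leave out a library (adjusted p 0.0663 to 0.0885). Of the exon bases of ACO5, 2.46% are covered by AT1G77320 on the opposite strand, which had 10.5 to 18.6 CPM and was not called in any comparison.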

How the results depend on the processing

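Of the 47 member calls over the 6 comparisons, 33 were kept in every alternative and 14 were lost in at least 1 of the 12 fits that leave out a library. None was reversed. DESeq2, RLE scaling and library totals lost none, dropping the filter lost 1 and the compared groups alone lost 6. Members called in er erl2 against wild type numbered 3 as reported, 7 by DESeq2, 10 in the compared groups alone and 1 to 8 without single libraries, the highest without pxf er erl2 replicate 3 and the lowest without er erl2 replicate 2. In pxf er erl2 against pxf there were 5 as reported, 2 in the compared groups alone and 3 to 5 without single libraries. In the interaction 1 to 3 members were called without single libraries. Genes called without single libraries ranged from 2497 to 4729 in pxf against wild type, 1192 to 2244 in pxf er erl2 against pxf and 1119 to 1747 in the interaction. The causes were not tested. Replicate numbers did not pair the libraries: of 18 same-numbered pairs, 5 had correlated deviations over 0.1 (-0.37 to 0.27), and 4 of 12 libraries correlated best with their own number. Between differently numbered libraries the correlation ran from -0.325 to 0.497, the highest for pxf replicate 2 with pxf er erl2 replicate 3. Each of these libraries was the highest of its group for ERS1, EBF1, ACO1, ACO4 and ERF11, though not for ETR2 or EBF2, among others. Members can thus share the deviation of a library, and its cause was not tested. With the replicate block, 4 member calls were lost and 3 members were called in pxf er erl2 against pxf. The ACC synthase genes with few counts were left out by the filter, so changes in them were not tested in the main fit.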
